A study of Homo with 4 samples.

Results

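The genes described here encode the translation initiation and elongation factors of H1299 cells, together with the kinases, methyltransferases and repressors that act directly on them and carry their names. They were chosen by symbol, as every gene whose name begins with EIF1, EIF2, EIF3, EIF4, EIF5, EIF6, EEF1 or EEF2, with EIF4EBP2 left out. This gave 67 of the 20263 genes in the deposited table, represented by 436 of its 95139 transcripts. The table lists Ensembl identifiers without symbols, so each gene was named from its position on GRCh38 against RefSeq. EEF1AKMT4 and EEF1AKMT4-ECE2 share 1 locus, could not be told apart by position and are not described.

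Initiation factors bring the initiator tRNA and the messenger RNA to the small ribosomal subunit. eIF2 carries the initiator tRNA with GTP and is recharged by eIF2B, eIF3 is a large scaffold on the small subunit, and eIF4F binds the cap and unwinds the leader of the message. Elongation then depends on eEF1A, which delivers each aminoacyl-tRNA, on the eEF1B exchange complex that recharges eEF1A, and on eEF2, which moves the ribosome along.

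H1299 is an established line of human non-small-cell lung cancer, labelled as epithelial. The 2 shCtrl samples were wild type for IGF2BP3 by their labels and carried a scramble control hairpin, and the 2 shIGF2BP3 samples carried a hairpin against IGF2BP3, an RNA-binding protein that binds and stabilises messenger RNAs. All 4 samples were infected with lentivirus and grown under the same stated conditions. The labels name no hairpin sequence, clone, age of culture or time after infection, and call the samples biological replicates without saying that they came from separate infections. Whether the 2 shIGF2BP3 samples carried the same hairpin is not given in the sources used here. The comparison asked how the mRNA levels of the translation factors differed after IGF2BP3 knockdown.

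The libraries held between 29709686 and 34817513 estimated counts, and the 67 genes took between 3.46% and 3.86% of them. Mitochondrially encoded genes took 9.11% and 13.4% of counts in shCtrl and 11.4% and 17.0% in shIGF2BP3, and the part of this difference in the results was not tested. IGF2BP3 itself was at 41.1 and 32.9 CPM (counts scaled to a common library size with trimmed mean of M-values factors) in shCtrl and at 26.4 and 24.8 CPM in shIGF2BP3, which is 69.1% of the control level (edgeR quasi-likelihood test, log2 fold change -0.53, SE 0.17, adjusted p = 0.472). Its unadjusted p lay under 0.05, but not without shCtrl replicate 1 (-0.36), shIGF2BP3 replicate 1 (-0.57) or shIGF2BP3 replicate 2 (-0.49). The epithelial keratins KRT8 (699 to 926 CPM) and KRT18 (1044 to 1398 CPM) were present, whereas KRT19, EPCAM and CDH1 were at or below 0.354 CPM and VIM was at 4338 to 7100 CPM. The lung lineage markers NKX2-1, SFTPB, SFTPA1 and NAPSA were at or below 0.443 CPM.

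As a group, the translation factors were close to level between shIGF2BP3 and shCtrl. Of the 67 genes, 64 had enough counts to be tested, of which 32 had a positive and 32 a negative log2 fold change. Their median was -0.01, beside 0.00 for all 13379 genes tested. EIF1AY, EIF4E1B and EIF4E3 did not pass the filter on low counts. In such bulk samples, fewer cells of a type and less RNA per cell cannot be told apart.

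The study took a fold change of 1.5 or more and an unadjusted p of 0.05 or less as its threshold, and the p-values meant here and below are unadjusted unless called adjusted. By this threshold, 2 of the 64 genes were lower in shIGF2BP3 (EEF1A2 and EIF2S3B) and 0 were higher. This is 3.125% of the genes, beside 5.32% of all genes tested (2.54% higher, 2.78% lower). At p of at most 0.05 with no fold limit, 10 genes (15.6%) passed, 8 of them higher and 2 lower, beside 10.5% of all genes (5.43% higher, 5.12% lower). Scaled by library totals, which moved the median of all genes to -0.08 and that of the factor genes to -0.09, 3 were higher and 4 lower at this p. After Benjamini-Hochberg adjustment over all genes, edgeR called 0 of the 64, and the 10 genes had adjusted p-values of 0.472 to 0.473. DESeq2 called 1 of 64 at an adjusted p under 0.05 and this fold (EEF1A2, adjusted p = 0.0498), beside 1.14% of all genes, and EIF3E passed its adjusted p at a smaller fold (adjusted p = 0.00851). The p-values measure the spread between these 4 samples only, which may in part be technical.

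The 2 groups did not overlap for 28 of the 64 genes (43.8%), of which 14 were higher and 14 lower in both shIGF2BP3 libraries, beside 46.8% of all genes (23.3% higher, 23.5% lower). Just inside the fold limit lay EEF1A2, and just outside it lay EIF3M, EEF1AKMT1, EIF4A1, EIF5B and EIF3E, with log2 fold changes of 0.58, 0.57, 0.55, 0.54 and 0.54.

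**Figure D1:**
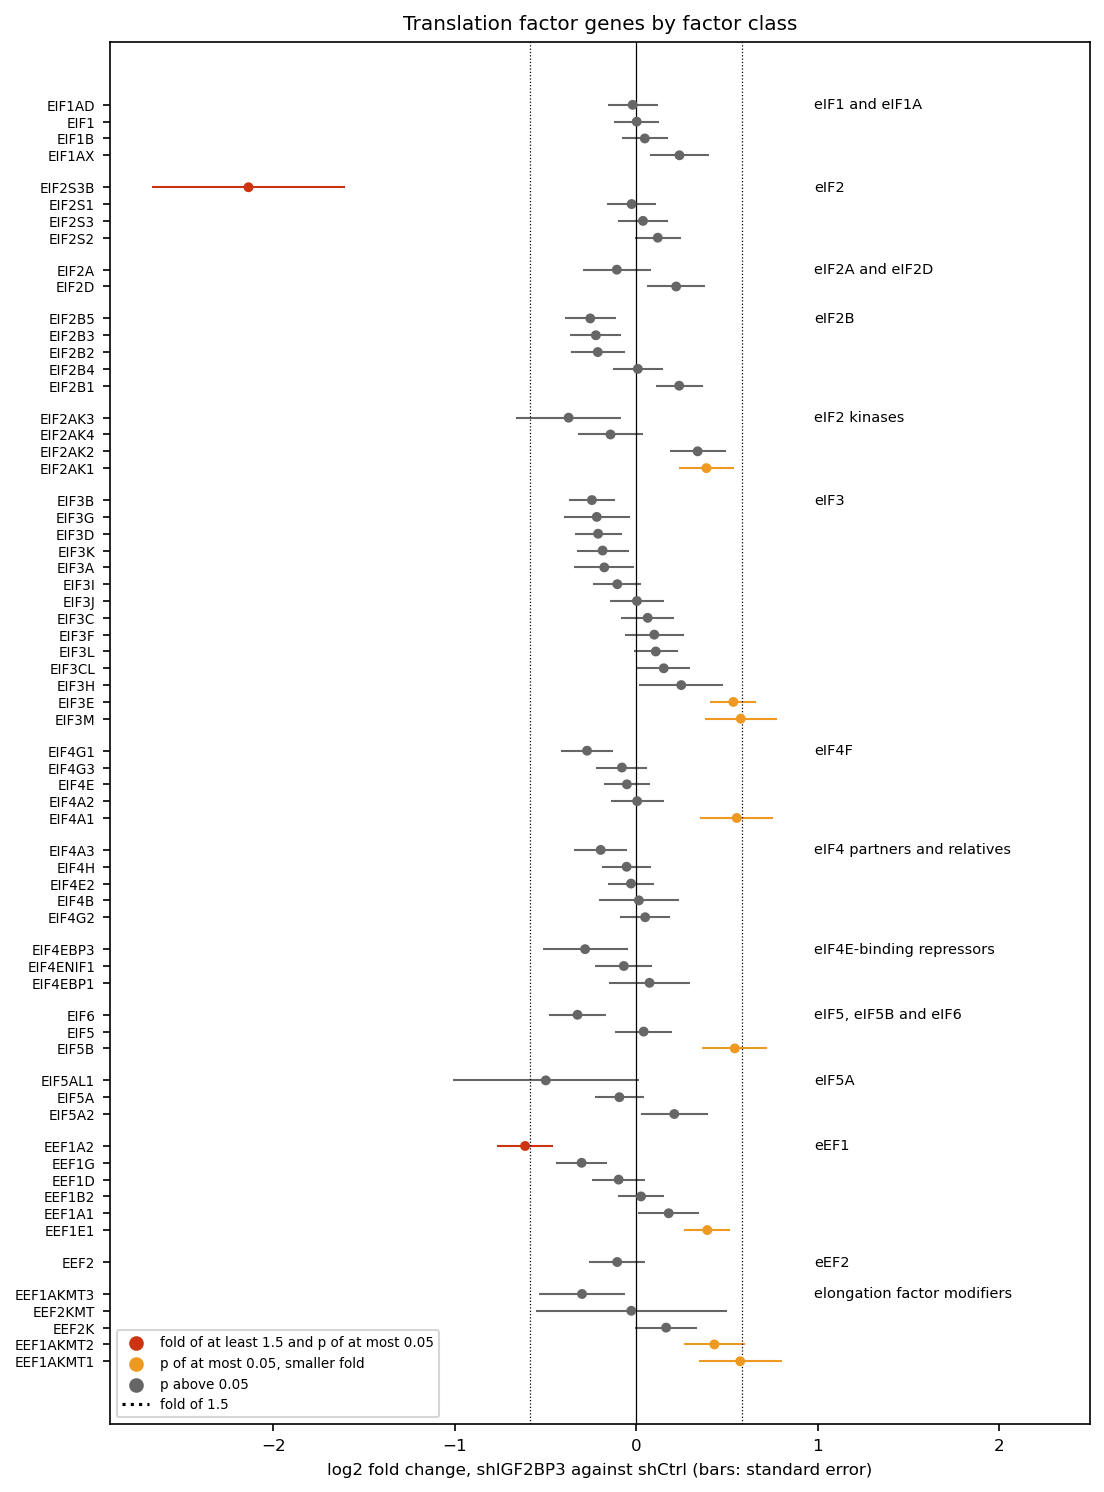
Log2 fold change of shIGF2BP3 against shCtrl for the 64 tested factor genes, grouped by factor class, with bars for the standard error and dotted lines at a fold of 1.5. Most points lie near 0, EEF1A2 and EIF2S3B (red) lie beyond the lower line, and 8 genes (orange) lie to the right with p of at most 0.05 but a smaller fold.

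The factors that assemble the first complex on the small subunit include eIF1, eIF1A and the 3 main eIF2 subunits. Of their genes, 0 reached p of at most 0.05 in edgeR, beside 10.5% of all genes tested. EIF1, whose product guards start codon selection, was at 473 and 482 CPM in shCtrl and at 487 and 470 CPM in shIGF2BP3, so the groups overlapped (log2 fold change 0.00, SE 0.12). Its close relative EIF1B was at 63.4 and 60.8 CPM against 63.4 and 65.0 CPM. EIF1B accounted for 22.4% to 24.0% of the summed FPKM of the pair in the 4 libraries, with no separation of the groups. EIF1AX, a gene for eIF1A, which works beside eIF1 in scanning, was at 151 and 127 CPM in shCtrl and at 150 and 178 CPM in shIGF2BP3, and the groups overlapped (0.24, SE 0.16).

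For the eIF2 subunits, EIF2S2, the beta subunit, was at 364 and 349 CPM in shCtrl and 372 and 403 CPM in shIGF2BP3 (log2 fold change 0.12, SE 0.13). The genes for the alpha and gamma subunits, EIF2S1 and EIF2S3, overlapped between the groups, with log2 fold changes of -0.02 and 0.04. EIF2S3B, a copy of the gamma subunit gene on chromosome 12 (10505602 to 10523135, plus strand), was the exception. All its counts lay in ENST00000538173 (10505890 to 10507491), the shorter of its 2 listed transcripts. It had 32 and 24 counts in shCtrl and 8 and 3 in shIGF2BP3, lower in both knockdown libraries (edgeR log2 fold change -2.14, SE 0.53, adjusted p = 0.472). These levels, under 1 CPM in every library, lay far below those of EIF2S3, and reads shared between such copies make the assignment uncertain. Without shCtrl replicate 1 its p was above 0.05 (-1.99).

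The genes of eIF2B, the exchange factor that recharges eIF2, did not move as a block. EIF2B2, EIF2B3 and EIF2B5 were lower in both shIGF2BP3 libraries, EIF2B1 was higher in both, and EIF2B4 overlapped. The class median was -0.21, but 0 of its 5 genes reached p of at most 0.05 (10.5% of all genes). The median was -0.08 without shCtrl replicate 2. EIF2B4, the most abundant of them per length, was at 58.4 and 66.5 CPM against 61.9 and 63.9 CPM. EIF2A and EIF2D, alternative carriers of initiator tRNA, were at log2 fold changes of -0.11 (SE 0.19) and 0.22 (SE 0.16).

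Of the 4 kinases that phosphorylate eIF2 under stress, EIF2AK1, the heme-regulated kinase, and EIF2AK2, the kinase activated by double-stranded RNA, were higher in both knockdown libraries. EIF2AK1 was at 219 and 220 CPM in shCtrl and at 258 and 315 CPM in shIGF2BP3 (log2 fold change 0.39, SE 0.15). Leaving out shIGF2BP3 replicate 2, the higher of the pair, brought this to 0.24, and p rose above 0.05 there and when shCtrl replicate 1 or 2 was left out (0.39 both times). EIF2AK2 was at 46.5 and 42.4 CPM against 51.1 and 61.4 CPM (0.34, SE 0.15, p above 0.05). Its groups overlapped on summed FPKM, at 5.54 and 3.89 in shCtrl and 4.80 and 4.86 in shIGF2BP3. The difference was 0.04 on the log2(FPKM + 1) scale (limma). EIF2AK3, the kinase of the endoplasmic reticulum, and EIF2AK4, the kinase that senses uncharged tRNA, overlapped between the groups (-0.37, SE 0.29 and -0.14, SE 0.18). Of 7 tested genes of the integrated stress response downstream of these kinases, 0 passed the fold and p threshold (5.32% of all genes). In the same edgeR fit, 0 of these 7 genes had p of at most 0.05 (10.5% of all genes). Among them ATF4, the central transcription factor of the response, was at 406 and 473 CPM in shCtrl and 472 and 562 CPM in shIGF2BP3 (0.23, SE 0.16).

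eIF3 is the largest of the initiation factors. Of its 14 genes, 3 were higher and 4 were lower in both knockdown libraries, beside 23.3% and 23.5% of all genes tested. The other 7 overlapped, and the class median was 0.03. Its summed FPKM was 2653 and 2759 in shCtrl and 2616 and 2421 in shIGF2BP3. EIF3E and EIF3M, both subunits of the structural core, had p of at most 0.05.

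EIF3E (chromosome 8, 108201743 to 108248765, minus strand) was at 430 and 451 CPM in shCtrl and at 633 and 643 CPM in shIGF2BP3. The 2 groups were well apart and each was tight, and EIF3E had the smallest p of all the factor genes (145% of control, log2 fold change 0.54, SE 0.13, edgeR adjusted p = 0.472). Leaving out any 1 library kept it between 0.51 and 0.57, with p under 0.05 each time. On the summed FPKM of its transcripts the difference was smaller, at 0.37 on the log2(FPKM + 1) scale (limma), with p above 0.05 when genes of low FPKM were filtered out and under 0.05 when they were kept.

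EIF3M (chromosome 11, 32583798 to 32606262, plus strand) was at 174 and 189 CPM in shCtrl and at 224 and 318 CPM in shIGF2BP3. The shIGF2BP3 libraries differed more from each other than the shCtrl libraries did (log2 fold change 0.58, SE 0.20). It was 0.30 without shIGF2BP3 replicate 2, 0.52 without shCtrl replicate 1 and 0.64 without shCtrl replicate 2, with p above 0.05 in each of these fits. Without shIGF2BP3 replicate 1 it was 0.81 and passed both the fold and the p limit. EIF3M overlaps CCDC73 on the other strand, and the strandedness of the counting is not given in the sources used here.

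The third gene higher in both knockdown libraries was EIF3L (0.11, SE 0.12), and those lower in both were EIF3B, EIF3D, EIF3I and EIF3K. EIF3K, the subunit gene with the highest FPKM, was at 542 and 634 CPM in shCtrl and at 529 and 505 CPM in shIGF2BP3 (-0.18, SE 0.14). When the subunits were arranged by their place in the complex, a grouping made after the values were seen, 6 of 8 genes of the structural octamer (EIF3A, EIF3C, EIF3E, EIF3F, EIF3H, EIF3K, EIF3L and EIF3M) had a positive log2 fold change and all 3 genes of the peripheral b, g and i module had a negative one. Their medians were 0.10 and -0.22. The signs of the octamer depended on the measure. EIF3C turned to -0.01 when libraries were scaled by their totals. In mean summed FPKM, EIF3F went from 28.2 in shCtrl to 27.5 in shIGF2BP3 and EIF3H from 192 to 171. EIF3C, EIF3E, EIF3L and EIF3M stayed higher in that measure, and EIF3A and EIF3K stayed lower. The groups of EIF3H overlapped in CPM, at 435 and 487 in shCtrl and 432 and 664 in shIGF2BP3. EIF3C and EIF3CL are near-identical copies on chromosome 16 whose reads cannot be securely divided, and EIF3CL took 46.1% to 47.9% of their summed FPKM.

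**Figure D2:**
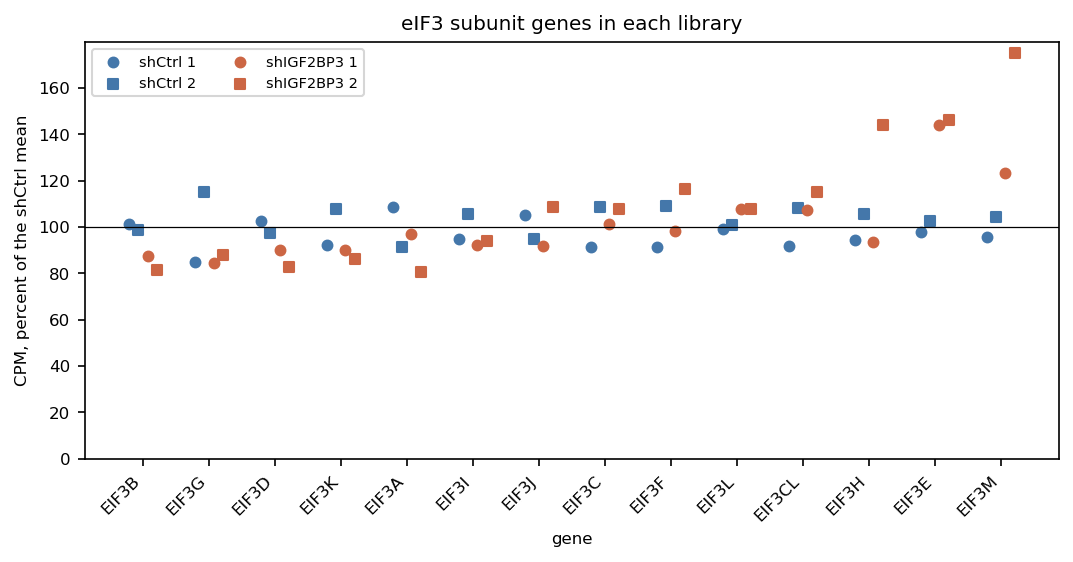
CPM of each eIF3 subunit gene in the 4 libraries, as percent of the shCtrl mean of that gene (line at 100), with genes ordered by log2 fold change. EIF3E and EIF3M lie highest in both shIGF2BP3 libraries, at 145% and 149% of control on the fitted scale, while EIF3B, EIF3D, EIF3I and EIF3K lie below both shCtrl libraries.

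In eIF4F, the cap-binding complex, the cap-binding subunit, the scaffolds and the second helicase gene did not reach the p threshold. EIF4E, the cap-binding subunit, was at 57.4 and 58.7 CPM in shCtrl and at 54.2 and 58.0 CPM in shIGF2BP3 (-0.05, SE 0.13). EIF4G1, the main scaffold, was at 586 and 594 CPM against 530 and 449 CPM, lower in both knockdown libraries (-0.27, SE 0.14, edgeR p above 0.05). The other scaffold, EIF4G3, was at 79.3 and 69.2 CPM against 72.7 and 67.9 CPM.

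EIF4A1, the main RNA helicase of the complex (chromosome 17, 7572706 to 7579005, plus strand), was at 785 and 559 CPM in shCtrl and at 926 and 1047 CPM in shIGF2BP3. It was higher in both knockdown libraries (log2 fold change 0.55, SE 0.20). The gene ENSG00000277957 (chromosome 17, 7563287 to 7578715) covers most of EIF4A1 on the same strand. It held 1257 and 13948 counts in shCtrl and 0 and 1093 counts in shIGF2BP3, and was highest in the library where EIF4A1 was lowest. How reads were divided between the loci is not given in the sources used here. With the counts of both loci added together, a step chosen after the values were seen, the levels were 818 and 970 CPM in shCtrl and 926 and 1087 CPM in shIGF2BP3, and the groups overlapped (edgeR 0.17, SE 0.16, p above 0.05). Without shCtrl replicate 2, the library concerned, the difference of EIF4A1 alone was 0.33, and without shIGF2BP3 replicate 2 it was 0.46, both with p above 0.05. Without shCtrl replicate 1 it was 0.82 and without shIGF2BP3 replicate 1 it was 0.65, past both the fold and the p limit. EIF4A2, the second helicase gene and a close relative of EIF4A1, was at 110 and 99.7 CPM against 113 and 97.8 CPM (0.01, SE 0.15).

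Among 7 loci that overlap a factor gene on the same strand, adding the counts changed the call at p of at most 0.05 for EIF4A1 only. For EEF1G, the overlapping gene ENSG00000255508 (chromosome 11, 62559603 to 62591531) had 2997 and 2906 counts in shCtrl and 331 and 194 in shIGF2BP3 (edgeR log2 fold change -3.31, SE 0.20, adjusted p = 0.0626). The combined EEF1G locus was at -0.35 (SE 0.14), against -0.30 (SE 0.14) for EEF1G alone, with p above 0.05 both times.

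**Figure D3:**
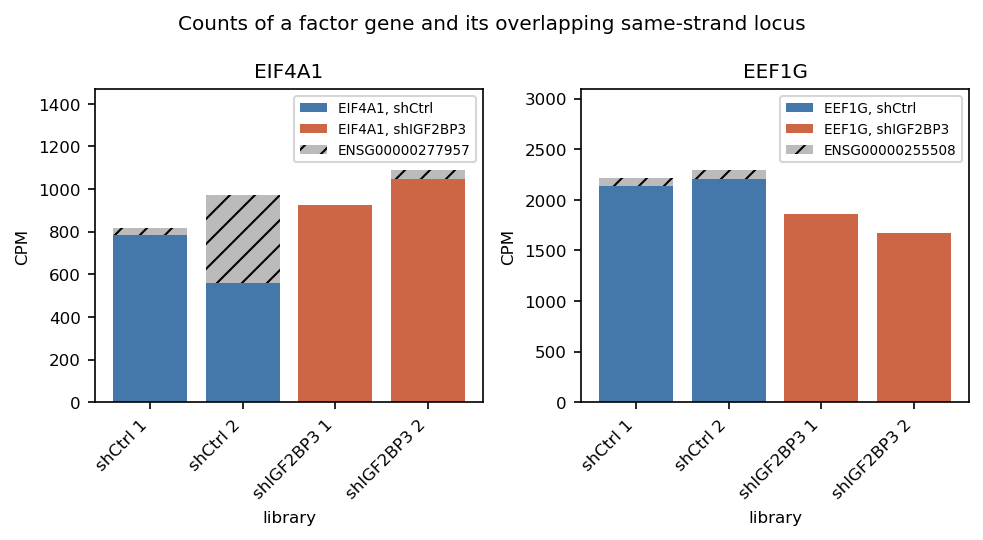
Stacked CPM of EIF4A1 and of EEF1G (blue for shCtrl, orange for shIGF2BP3) with the gene that overlaps each on the same strand (hatched), in the 4 libraries. In shCtrl replicate 2 the hatched part over EIF4A1 reaches 412 CPM and the full bar stands at 970 CPM, between the shIGF2BP3 bars of 926 and 1087 CPM.

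Most partners and repressors of eIF4F overlapped between the groups. EIF4A3 (-0.20, SE 0.15) and EIF4EBP3 (-0.28, SE 0.23) were lower in both knockdown libraries, with p above 0.05 in edgeR. EIF4EBP3 was low, at 3.72 and 4.63 CPM in shCtrl and 3.39 and 3.49 CPM in shIGF2BP3. EIF4H, a cofactor of the helicase and the most abundant of the partners per length, was at 812 and 742 CPM in shCtrl and 775 and 723 CPM in shIGF2BP3 (-0.05, SE 0.13). EIF4E2, a cap-binding relative that acts with translational repressors, was at 89.2 and 95.6 CPM against 90.8 and 90.4 CPM. EIF4E2 accounted for 89.4% to 91.2% of the summed FPKM of EIF4E, EIF4E2 and EIF4E3, with EIF4E at 8.81% to 10.6% and EIF4E3 close to 0. These shares depend on the transcripts to which reads were assigned, and how this was done is not given in the sources used here. In CPM, which is not scaled by length, the shCtrl means were 58.1 for EIF4E and 92.4 for EIF4E2. EIF4EBP1, the mTOR-regulated repressor of eIF4E, was at 126 and 187 CPM against 153 and 177 CPM (0.07, SE 0.22), and the shCtrl libraries differed from each other by more than the group means did.

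At the joining of the ribosomal subunits, EIF5B, the GTPase that brings in the large subunit, was higher in both knockdown libraries. EIF5B was at 120 and 110 CPM in shCtrl and at 144 and 192 CPM in shIGF2BP3 (log2 fold change 0.54, SE 0.18). It was 0.32 without shIGF2BP3 replicate 2, 0.61 without shCtrl replicate 1 and 0.49 without shCtrl replicate 2, and p was above 0.05 in each of these fits. Without shIGF2BP3 replicate 1 it was 0.74 and passed both the fold and the p limit. EIF6, which keeps the large subunit from joining early, was at 581 and 715 CPM against 537 and 498 CPM. It did not reach the threshold (-0.32, SE 0.16), and was at -0.46 without shCtrl replicate 1 and -0.17 without shCtrl replicate 2. Its p was under 0.05 in edgeR scaled by library totals (-0.39) and in limma on log2(FPKM + 1) without the filter (-0.38). It was above 0.05 in DESeq2 (-0.32) and in limma on log2(FPKM + 1) with the filter (-0.38). EIF5A, which helps the ribosome through difficult peptide bonds, was at 907 and 982 CPM against 919 and 853 CPM (-0.09, SE 0.14). Its relative EIF5A2 took 0.583% to 1.04% of the summed FPKM of the pair. The copy EIF5AL1, whose reads may be shared with EIF5A, overlapped between the groups and was at 7.18 and 22.2 CPM in the shCtrl libraries. It passed the fold and p threshold, as lower, without shCtrl replicate 1.

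Among the elongation factors, the eEF1 genes together had a summed FPKM of 7412 and 8791 in shCtrl and of 9401 and 8279 in shIGF2BP3, so the groups overlapped. This was 46.2% and 50.6% of the summed FPKM of all 67 genes in shCtrl and 52.5% and 55.2% in shIGF2BP3, where the last share stood beside a share of EEF2 of 7.65%, against 13.5% to 14.7% in the other libraries. EEF1A1, the ubiquitous eEF1A gene, supplied between 1.47% and 1.72% of all counts in the 4 libraries. After scaling it was at 13515 and 15630 CPM against 16870 and 16142 CPM (0.18, SE 0.17). EEF1A1 has many processed pseudogenes, and reads from them cannot be told apart from its own where the sequence is shared.

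EEF1A2, the eEF1A isoform normally of nerve and muscle, had a negative log2 fold change, while that of EEF1A1 was positive with p above 0.05 in edgeR. EEF1A2 (chromosome 20, 63488013 to 63499315, minus strand) was at 189 and 226 CPM in shCtrl and at 143 and 129 CPM in shIGF2BP3. Both knockdown libraries lay below both controls, at 65.5% of the control level (log2 fold change -0.61, SE 0.15, edgeR adjusted p = 0.472). The p stayed under 0.05 in all 14 alternatives tried, but the fold dropped under 1.5 without shCtrl replicate 2 (-0.48) and without shIGF2BP3 replicate 2 (-0.54). Per length, EEF1A2 supplied 1.78% and 1.52% of the summed FPKM of EEF1A1 and EEF1A2 in shCtrl and 0.871% and 0.784% in shIGF2BP3.

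Among the subunits of the eEF1B exchange complex, EEF1B2 and EEF1D overlapped between the groups, and EEF1G was lower in both knockdown libraries, with p above 0.05 in edgeR (-0.30) and under 0.05 in DESeq2 (-0.30) and in edgeR scaled by library totals (-0.37). EEF1G was at 2134 and 2204 CPM in shCtrl and at 1854 and 1669 CPM in shIGF2BP3. EEF1E1, a scaffold protein of the multi-synthetase complex, was at 55.9 and 60.1 CPM against 75.8 and 76.5 CPM, with both groups tight and apart (log2 fold change 0.39, SE 0.13). Its p was above 0.05 in the fits that left out shCtrl replicate 1 (0.35), shIGF2BP3 replicate 1 (0.41) or shIGF2BP3 replicate 2 (0.39). EEF2, the translocase, was at 4484 and 5177 CPM against 4544 and 4445 CPM, and the groups overlapped (-0.10, SE 0.15).

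Of the 5 enzymes that modify the elongation factors, the lysine methyltransferases of eEF1A EEF1AKMT1 and EEF1AKMT2 were higher in both knockdown libraries. EEF1AKMT2 was at 29.4 and 27.9 CPM in shCtrl and at 34.5 and 42.8 CPM in shIGF2BP3 (0.43, SE 0.17). EEF1AKMT1 was at 8.33 and 6.02 CPM against 10.7 and 10.7 CPM (0.57, SE 0.23). Both lay at the edge of the p limit and missed it without shIGF2BP3 replicate 2 (EEF1AKMT2 at 0.27 and EEF1AKMT1 at 0.57) and without shCtrl replicate 2 (0.39 and 0.36). EEF1AKMT2 also missed it without shCtrl replicate 1 (0.48), and EEF1AKMT1 without shIGF2BP3 replicate 1 (0.58). Without shCtrl replicate 1, EEF1AKMT1 was at 0.83 and passed both the fold and the p limit. EEF2K, the kinase that inhibits eEF2, overlapped (0.17, SE 0.17), as did EEF1AKMT3 and EEF2KMT.

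**Figure D4:**
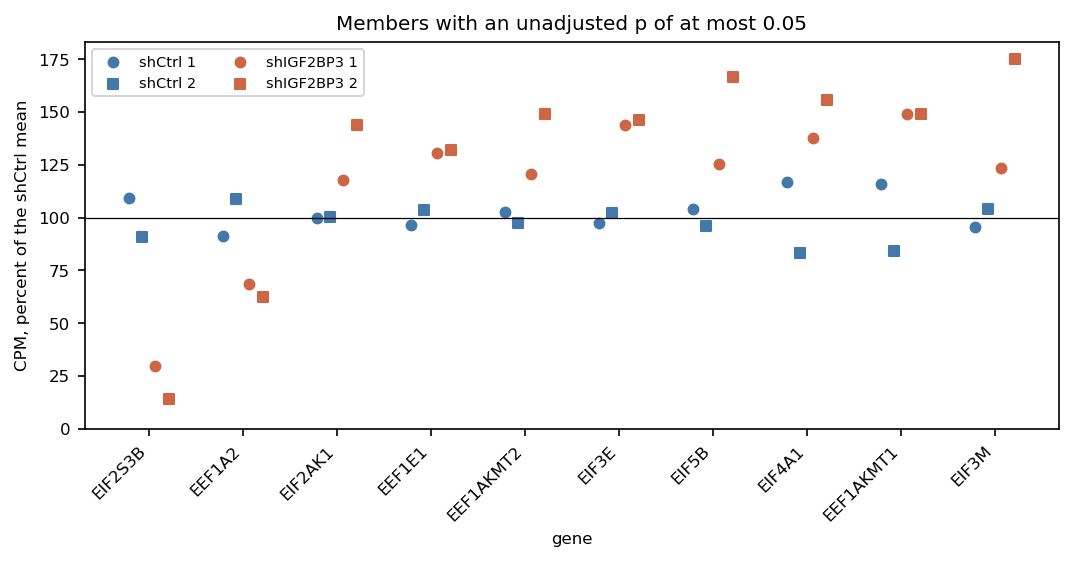
CPM in the 4 libraries, as percent of the shCtrl mean (line at 100), for the 10 factor genes with an unadjusted p of at most 0.05. EIF2S3B and EEF1A2 lie below the line in both shIGF2BP3 libraries, and the remaining 8 genes lie above both shCtrl libraries, with shIGF2BP3 replicate 2 the higher of the pair for 7 of them, all but EEF1AKMT1.

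At the level of single transcripts, differences were larger and replicates less alike than at the level of genes. The biological coefficient of variation was 85% across transcripts, against 22.8% across genes. Of 302 tested transcripts of the factor genes, 26 passed the fold and p threshold (8.61%), beside 6.3% of all 37927 transcripts tested. Of these, 9 were higher (2.5% of all transcripts) and 17 lower (3.79%), in 17 genes, and 7 had no more than 100 counts in any library. After adjustment over all transcripts, edgeR called 0 of the 302 (smallest adjusted p = 0.328), while DESeq2 called 25 at an adjusted p under 0.05 and this fold, beside 6.45% of all transcripts.

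The largest and most even change of transcript usage was in EIF4G1 (chromosome 3, 184314495 to 184335358, plus strand), for which 29 transcripts were listed. ENST00000435046 (184320664 to 184335347) had 0 counts in both shCtrl libraries and 13519 and 8374 counts in shIGF2BP3, where it took 73.9% and 67.7% of the count of the gene. Against a floor of 3 counts per library, it was at least 4193-fold higher in shIGF2BP3 (edgeR adjusted p = 0.328). Of all 95139 transcripts, 39 had at least 100 counts in both shIGF2BP3 libraries and 0 in both shCtrl libraries, and ENST00000435046 was the 1 among the factor transcripts. The reverse held for 118 of all transcripts and 0 of the factor transcripts. Between replicates, 1360 of all transcripts had at least 100 counts in 1 shCtrl library and 0 in the other. Within shIGF2BP3, 1617 did so.

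Other EIF4G1 transcripts were lower in the same libraries. ENST00000441154 (184319757 to 184334908) took 47.5% and 43.0% of the count in shCtrl and 17.4% and 22.9% in shIGF2BP3 (log2 fold change of its level -1.44, SE 0.14). ENST00000411531 (184316192 to 184334908) took 37.0% and 26.0% in shCtrl and 0.421% and 0.946% in shIGF2BP3 (-5.83, SE 0.52). The low ENST00000457456 had 116 and 72 counts in shCtrl and 0 in both shIGF2BP3 libraries, at least 26.3-fold lower. ENST00000427845 differed more within shCtrl, at 5.51% and 18.6%, and was at 0.345% and 0% in shIGF2BP3. The shift of 70.8 percentage points between the groups exceeded the widest gaps within them, which were 13.0 points in shCtrl and 6.22 points in shIGF2BP3, while the total of the gene did not pass the threshold. These transcripts overlap over most of their length, and how the counting divided shared reads is not given in the sources used here.

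EEF1A2 had only 2 transcripts. The count of ENST00000298049 (63488013 to 63497834) was 4520 and 5126 in shCtrl and 2009 and 346 in shIGF2BP3, whereas that of ENST00000217182 (63488013 to 63499315) was 2589 and 2542 in shCtrl and 2919 and 3209 in shIGF2BP3. By these assigned counts, the lower level of the gene lay in ENST00000298049, which went from 63.6% and 66.9% of the count to 40.8% and 9.73%. Its span lies within that of ENST00000217182, and how shared reads were divided is not given in the sources used here. Neither transcript reached p of at most 0.05 on its own in edgeR, and the shIGF2BP3 libraries differed from each other by 31.0 points.

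In EIF2AK4, ENST00000560855 (chromosome 15, 39953975 to 40035591) had 1 count in each shCtrl library and 408 and 936 counts in shIGF2BP3 and passed the fold and p threshold. It went from under 0.1% of the count of the gene to 13.2% and 40.7%, and the remainder lay nearly all in ENST00000263791. In EIF2A, ENST00000460851 took 25.3% and 28.5% of the count in shCtrl and 51.2% and 74.5% in shIGF2BP3 (1.17, SE 0.34).

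EIF3E was different, because its controls disagreed. ENST00000220849 (108201743 to 108248765) took 34.0% and 70.0% of the count in shCtrl and 87.2% and 89.3% in shIGF2BP3, and ENST00000519030 took 58.8% and 22.4% against 6.32% and 6.42%. The gap of 36.4 points within shCtrl was as wide as the shift of 36.3 points between the groups. The minor ENST00000522352 had 69 and 89 counts against 445 and 224 (2.26, SE 0.47), with p above 0.05 without shCtrl replicate 1 (2.05).

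**Figure D5:**
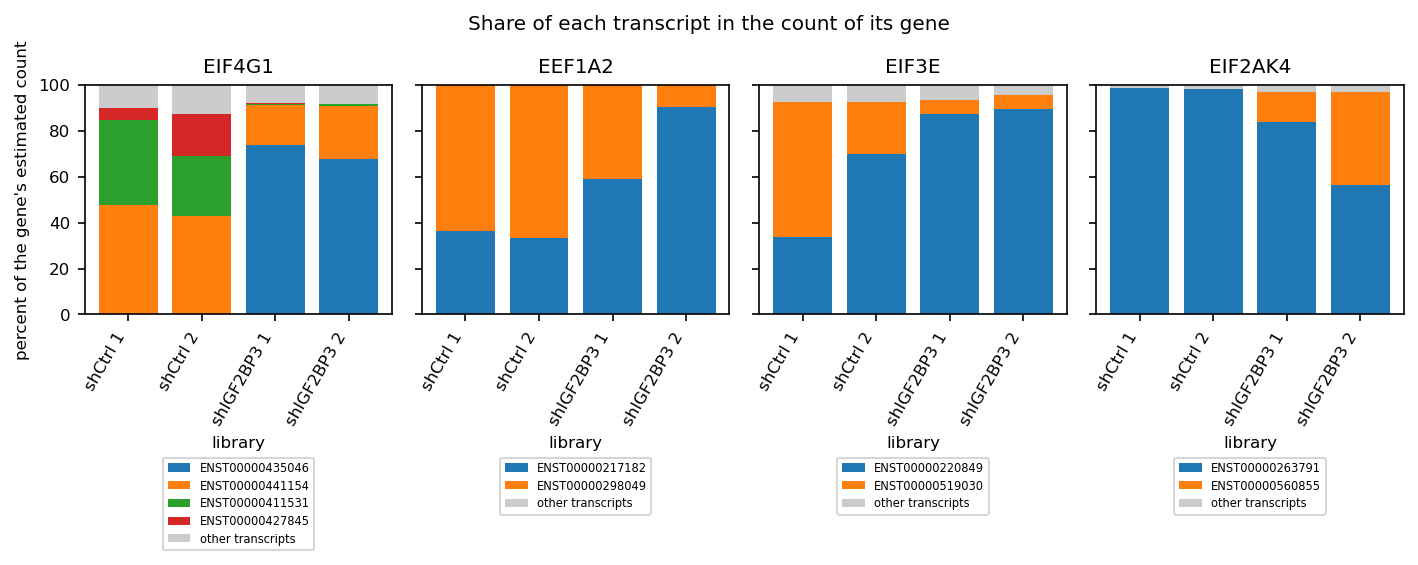
Share of the estimated count of EIF4G1, EEF1A2, EIF3E and EIF2AK4 taken by each transcript that reached 10% of its gene in any library, with the remaining transcripts in grey. The EIF4G1 panel differs between the groups and is alike within them, with ENST00000435046 (blue) at 0% in both shCtrl libraries and at 73.9% and 67.7% in shIGF2BP3, whereas the shCtrl libraries differ from each other in the EIF3E panel.

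The remaining transcripts named by the same rule were minor forms of their genes. In shIGF2BP3, ENST00000422786 of EIF2AK1 had 59 and 31 counts against 5 and 3, and ENST00000522800 of EIF3H had 518 and 335 against 15 and 3. In the other direction, ENST00000405940 of EIF2B4 had 140 and 146 counts in shCtrl and 16 and 8 in shIGF2BP3. ENST00000309268 of EEF1A1 went from 11.9% and 4.81% of the count of its gene to 0.688% and 0.462% (-3.62, SE 0.56). None of these 4 made up more than 12% of its gene in any library.

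Across the 57 factor genes with at least 2 transcripts and a mean count of at least 100, the largest share moved by 20 points or more between the groups in 12 genes. Gaps of this size also occurred within shCtrl in 10 genes and within shIGF2BP3 in 10 genes. The shift was at least 20 points and exceeded both gaps in 5 genes, EIF4G1, EEF1A2, EIF2A, EIF2AK4 and EIF3L, named after the values were seen. These counts were made for the factor genes only, so no share over all genes stands beside them. In EIF3L the margin was small, at 21.9 points between the groups against 20.5 and 21.2 points within them. It was also small in EIF2AK4, at 28.5 points between the groups against 27.5 points within shIGF2BP3.

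The factors whose messages begin with a terminal oligopyrimidine tract form a class translated under mTOR control. Of these 9 genes (EEF1A1, EEF1B2, EEF1D, EEF1G, EEF2, EIF3E, EIF3F, EIF3H and EIF4B), 0 passed the fold and p threshold in edgeR and 1, EIF3E, had p of at most 0.05, with a median log2 fold change of 0.03 (-0.14 on the log2(FPKM + 1) scale). Among the other 55 members, 2 passed, 9 had p of at most 0.05, and the median was -0.02. Of all genes tested, 5.32% passed the fold and p threshold and 10.5% had p of at most 0.05. On the log2(FPKM + 1) scale, the median was -0.07 for all genes and -0.07 for all factor genes.

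Other genes of translation, outside the factor families, were fitted in the same model. Of 48 tested, 1 was higher and 1 lower at the fold and p threshold, 8 had p of at most 0.05, and the median was -0.04, beside 5.32% and 10.5% of all genes. ABCE1, which splits the ribosomal subunits after termination, was at 89.8 and 80.6 CPM in shCtrl and at 117 and 147 CPM in shIGF2BP3 (0.63, SE 0.17, edgeR adjusted p = 0.472). GFM2, the mitochondrial recycling factor, was at 43.9 and 39.7 CPM against 26.3 and 21.3 CPM (-0.81, SE 0.17, edgeR adjusted p = 0.472). By list, p of at most 0.05 (10.5% of all genes) was reached by 3 of 7 genes of termination and recycling, 2 of 14 of eIF4E and mTORC1 control, 1 of 6 poly(A)-binding proteins and partners, 2 of 8 mitochondrial translation factors, 0 of 4 helicases of scanning and 0 of 2 enzymes of hypusine synthesis.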

How the data were processed

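RNA sequencing of 4 H1299 samples (2 shCtrl, 2 shIGF2BP3) was analysed from the authors' processed tables. Per the labels, RNA was extracted with Trizol and libraries were made with a VAHTS mRNA-Seq V2 kit. The submitters' processing notes name CASAVA, Trimmomatic, HISAT2, bedtools, FastQC and GRCh38. The counting tool, its strand setting and the annotation are not given in the sources used here. The deposited estimated count per transcript was whole-numbered and not normalized, and the deposited FPKM per transcript was computed by the authors. Count columns were matched to samples through the names of the FPKM tables, because the count table calls the knockdown libraries 2 and 3 and the labels call them 1 and 2. No column of per-sample values was left unmapped (0).

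Transcript counts and FPKM were summed per gene. Symbols came from RefSeq (GRCh38.p14) by position, for 18222 of 20263 genes. The members and gene lists were chosen with earlier results of these data known. Genes and transcripts were fitted across the whole table with edgeR 4.0.16 (R 4.3.3; filterByExpr with a minimum count of 10 and total of 15, TMM factors, quasi-likelihood test, prior count 0.125, no covariates) and adjusted by Benjamini-Hochberg. All tests were two-sided, and log2 fold changes are shIGF2BP3 against shCtrl. TMM factors lay between 0.927 and 1.08. Tables were handled in Python 3.11.15 with pandas 2.3.3. The scripts were tested on simulated data. Alternatives used DESeq2 1.42.0, limma 3.58.1 on log2(FPKM + 1) or log2(FPKM + 0.1) (genes at FPKM 1 or more in 2 libraries), other scaling and filters, a replicate block and each library left out. Replicates differed far beyond sampling noise (chi-square per degree of freedom 78.9 and 77.5), so no library was a copy. Same-numbered libraries did not deviate together (correlation 0.02), so the numbers were not taken as pairs.

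Members were named when they passed a fold of 1.5 with p of at most 0.05, were among the 12 with the smallest p, had the highest mean FPKM of their class or stood in a paralog pair. Named transcripts were the 5 higher and 5 lower with the smallest p among those past the threshold without overlap. Others are named after their values were seen. A fold against a group at 0 was computed against a floor of 3 counts per library, which covers counting error only.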

Additional observations from a re-analysis of the deposited data

How the results depend on the processing

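With 2 libraries a group, each call rests on few values. At fold 1.5 and p of at most 0.05, the count of higher genes (0) was 1 with the replicate block (EEF1AKMT1), 1 with limma on log2(FPKM + 1) and 1 on log2(FPKM + 0.1) (both EIF3M), and 0 to 3 when 1 library was left out. The count of lower genes (2) was 1 with at least 10 counts in every library, 1 in each of the limma fits (log2(FPKM + 1) with and without the filter, log2(FPKM + 0.1)), and 1 to 2 with 1 library left out. EIF2S3B was not among the genes those filters kept, and its fold was under the limit in the unfiltered fit. With the replicate block the counts were 1 higher and 2 lower, the numbers did not pair the samples, and the block made EEF1AKMT2 miss the p limit (0.42). At p of at most 0.05 with no fold limit (8 higher, 2 lower), library totals gave 3 and 4, limma gave 1 and 1 on either scale and 3 and 4 without the filter, at least 10 counts gave 7 and 1, and leaving out 1 library gave 1 to 7 and 2 to 4. Other genes of translation past the fold and p threshold (2) numbered 2 to 6 with 1 library left out. DESeq2 called 1 lower gene at an adjusted p under 0.05 (0 in edgeR). For transcripts, DESeq2 gave 18 higher and 31 lower (9 and 17 in edgeR), and leaving out 1 library gave 6 to 12 higher and 11 to 29 lower. Outside the main edgeR fit, no share over all genes or all transcripts stands beside these counts at unadjusted p. Whether calls rose or fell alike over all genes or transcripts in those fits was therefore not tested. IGF2BP3 kept its direction, between -0.68 and -0.36 with 1 library left out.

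With library totals in place of TMM the median of all genes moved to -0.08, and class medians became -0.026 for eIF2A and eIF2D, -0.28 for eIF2B and -0.14 for the eIF4E-binding repressors. With 1 library left out, class medians ran from -0.12 to 0.061 for eEF1, from -0.086 to 0.11 for eIF2, from -0.26 to -0.082 for eIF2B, from -0.071 to 0.12 for eIF3, from -0.18 to -0.037 for the eIF4E-binding repressors and from -0.11 to 0.22 for eIF5, eIF5B and eIF6.

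Genes near 0 changed sign. Library totals gave -0.074 (EIF1), -0.066 (EIF2B4), -0.072 (EIF4A2), -0.034 (EIF1B) and -0.011 (EIF3C). limma on log2(FPKM + 1), with or without the filter, gave -0.069, -0.054, -0.072 and -0.018 for the first 4, and log2(FPKM + 0.1) gave -0.069, -0.056, -0.074 and -0.018. With 1 library left out, the ranges were -0.20 to 0.0034 (EEF2), -0.015 to 0.028 (EIF1), -0.31 to 0.13 (EIF2A), -0.077 to 0.11 (EIF2B4), -0.12 to 0.018 (EIF4H), -0.18 to 0.39 (EIF4EBP1), -0.097 to 0.11 (EIF4A2), -0.17 to 0.028 (EIF4G3), -0.10 to 0.0045 (EIF4E), -0.073 to 0.023 (EIF4E2) and -0.051 to 0.19 (EIF3C). The cause of these shifts was not tested.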

Other observations

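Some transcripts of the factor genes stood apart in a single library or replicate, in values chosen after they were seen. In EIF3H, ENST00000276682 took 96.0% of the count of the gene in shCtrl replicate 2 and between 2.81% and 6.02% in the other libraries, where ENST00000521861 took 76.7% to 91.4%. In EIF5, ENST00000392715 took 60.3% of the count in shIGF2BP3 replicate 1, with 7697 counts, and had at most 5 counts in any other library. In EEF1A1, ENST00000610520 took 36.3% of the count in shCtrl replicate 1 and 0% in shCtrl replicate 2. In EEF2, the short ENST00000600794 (chromosome 19, 3976056 to 3978134) had 17147, 19492 and 18390 counts in shCtrl replicates 1 and 2 and shIGF2BP3 replicate 1, and 346 in shIGF2BP3 replicate 2. The summed FPKM of EEF2 was 2361, 2562 and 2421 in those libraries and 1147 in shIGF2BP3 replicate 2, although its CPM there was 4445 against 4484 to 5177 in the others. Of the 436 factor transcripts, 5 had at least 100 counts in 1 shCtrl library and 0 in the other, and 6 did so within shIGF2BP3, beside 1360 and 1617 of all 95139 transcripts.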
